A study of Populus tremula x Populus tremuloides with 6 samples.

Results

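Among the 37662 loci counted in poplar leaves, 2946 carried no gene identifier, and 242 of these unnamed loci reached 20 CPM (counts-per-million, of the reads assigned to loci) on average over all 6 libraries. These 242 loci are described here. They were 8.21% of the unnamed loci and 0.643% of all loci, and they held 70.7% of the reads of the unnamed loci, pooled over the libraries. They were chosen by their mean CPM, so their height is not a finding, and a locus that is high in only 1 group of plants could enter through that group alone. All 242 had reads in every library, the fewest being 13, and all 242 passed the filter on low counts.

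The libraries came from leaves of hybrid poplar, Populus tremula x Populus tremuloides, clone INRA 353-38. The 3 wild-type plants were compared with 3 plants of genotype MYB117-overexpress, which had received MYB117 in the binary vector pMDC32 through Agrobacterium tumefaciens strain GV3101::pMP90. All plants went from tissue culture to a mist chamber for 1 month and then to a greenhouse for 2 months, and leaves of plastochron index 7 to 10 were collected. The question is which transcripts of the leaf change under MYB117 overexpression. The vector pMDC32 is known to drive its insert from a doubled 35S promoter, which is active in most plant tissues. The sources used here do not say whether the transgenic plants were separate transformation events, and the wild-type plants are not stated to carry an empty vector. The p-values set the difference between the 2 groups against the spread between these plants.

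MYB117 is a transcription factor of the R2R3-MYB family, whose members include activators of anthocyanin and other flavonoid synthesis in leaves. Loci without a gene identifier arise when an assembler such as Cufflinks joins aligned reads into a transcript where the annotation has no gene. Such loci can be long non-coding RNAs, protein-coding genes that the annotation missed, transposon-derived transcripts, or detached ends of neighbouring genes. The counts do not tell these kinds apart. No sequence, length or coordinate accompanied the loci, so none is shown, and an order of CPM between loci is an order of reads and not of transcripts per length. Without the counting options, reads from near-identical copies, overlapping loci and opposite strands cannot be told apart either.

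Reads in loci ranged from 28960403 to 49442174 per library. Across loci, Pearson correlations of log2 CPM were 0.919 to 0.982 within a group and 0.853 to 0.907 between groups. The level of MYB117 itself and markers of leaf cell types were not analysed here, so no value below checks the genotype labels. In bulk leaf RNA, fewer cells of a type and less RNA per cell cannot be told apart.

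A few loci carried much of the signal. The 3 most abundant held 23.6% of the summed CPM of the 242 and the 10 most abundant held 39.8%, while 161 loci (66.5%) lay below 50 CPM. A mean of 100 CPM was reached by 39 loci, 200 CPM by 19, 500 CPM by 6 and 1000 CPM by 3. The median of the means was 37.3 CPM, against 44.0 CPM for the 9008 loci that carried a Potra gene identifier and met the same level. These 9008 loci are called annotated loci below.

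At 8 of the 10 most abundant loci the plants of the 2 groups overlapped. The most abundant, XLOC_008754, had 7672, 1167 and 1079 CPM in wild-type plants 1, 2 and 3 and 1937, 619.6 and 844 CPM in MYB117 plants 1, 2 and 3. Plant 1 was the highest of each group, and the groups overlapped. Its log2 fold change, MYB117 against wild type, was -1.72 with an SE of 0.96 and did not pass the test (adjusted p = 0.26, from the quasi-likelihood F test of edgeR), and without wild-type plant 1 it was 0.045. The next in level, XLOC_037084, had 528, 2302 and 3198 CPM in wild type and 1329, 2194 and 1039 CPM in the MYB117 plants. Wild-type plant 1 was the lowest of all 6, and the log2 fold change was -0.44 (SE 0.60, adjusted p = 0.64, edgeR).

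XLOC_029953, number 5 by level, had 833, 531 and 568 CPM in wild type and 1062, 203 and 89.0 CPM in the MYB117 plants. MYB117 plant 1 lay above every wild-type plant and the other 2 MYB117 plants lay below them. The log2 fold change was -0.57 (SE 0.89, adjusted p = 0.69, edgeR), and without MYB117 plant 1 it was -2.31, with an adjusted p of 0.0497. XLOC_034159, number 8, was the steadiest of the 10 in wild type, with 464, 514 and 487 CPM there and 557, 415 and 366 CPM in the MYB117 plants. Its groups overlapped as well, at a log2 fold change of -0.21 (SE 0.25, adjusted p = 0.59, edgeR).

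Number 6 by level was the only 1 of the 10 to pass the test. It had 246, 122 and 131 CPM in wild type and 1122, 699 and 917 CPM in the MYB117 plants, so that every MYB117 plant lay above every wild-type plant. The group means of 166 ± 68.8 and 913 ± 211 CPM (SD, n = 3 each) are 5.49-fold apart, with a log2 fold change of 2.33 (SE 0.43, adjusted p = 0.016, edgeR). The call was lost without wild-type plant 2 (adjusted p = 0.053) and without MYB117 plant 3 (adjusted p = 0.055).

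The 242 loci together held 2.07%, 1.83% and 2.11% of the reads of wild-type plants 1, 2 and 3 and 2.64%, 2.27% and 2.02% of the reads of the MYB117 plants. The groups overlapped, and the difference between the means of 2.00% ± 0.154 and 2.31% ± 0.309 (SD, n = 3 each), 0.306 percentage points, was less than the SD of the MYB117 plants. The 3 most abundant loci held 0.660% ± 0.183 in wild type and 0.359% ± 0.0948 in the MYB117 plants. Without them the other 239 held 1.21%, 1.33% and 1.48% of wild-type reads and 2.23%, 1.85% and 1.77% of MYB117 reads, and the groups did not overlap. The 3 left out all had lower means in the MYB117 plants. Of the 239, 62 reached 20 CPM only in the MYB117 plants and 20 only in wild type. This separation thus follows in part from how the loci were chosen.

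Called changes were mostly rises. Of the 242 loci, 49 (20.2%) were higher in the MYB117 plants and 11 (4.55%) were lower at an adjusted p below 0.05 (quasi-likelihood F test of edgeR, Benjamini-Hochberg adjusted over the 26854 tested loci), and 182 did not pass. Over all tested loci 17.1% were called, 9.94% higher and 7.19% lower, and among annotated loci of the same level 10.2% were higher and 9.30% lower. Unnamed loci below 20 CPM had 15.4% higher and 3.27% lower. The median log2 fold change of the 242 was 0.22, with quartiles of -0.24 and 1.07, against -0.06 over all tested loci, 0.02 for annotated loci of the level and 0.14 for unnamed loci below it.

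The level rule itself bears on this direction. Means of at least 20 CPM in both groups were found at 160 of the loci, of which 14 (8.75%) were higher and 3 (1.88%) lower, with a median log2 fold change of 0.07. Among 7789 annotated loci with both means at that level, 7.55% were higher and 8.02% lower, with a median of 0.01. Another 62 loci (25.6%) reached 20 CPM only in the MYB117 plants and 20 (8.26%) only in wild type, against 7.50% and 6.03% of annotated loci. The 62 held 35 of the 49 rises and the 20 held 8 of the 11 falls, which follows in part from how they entered.

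**Figure D1:**
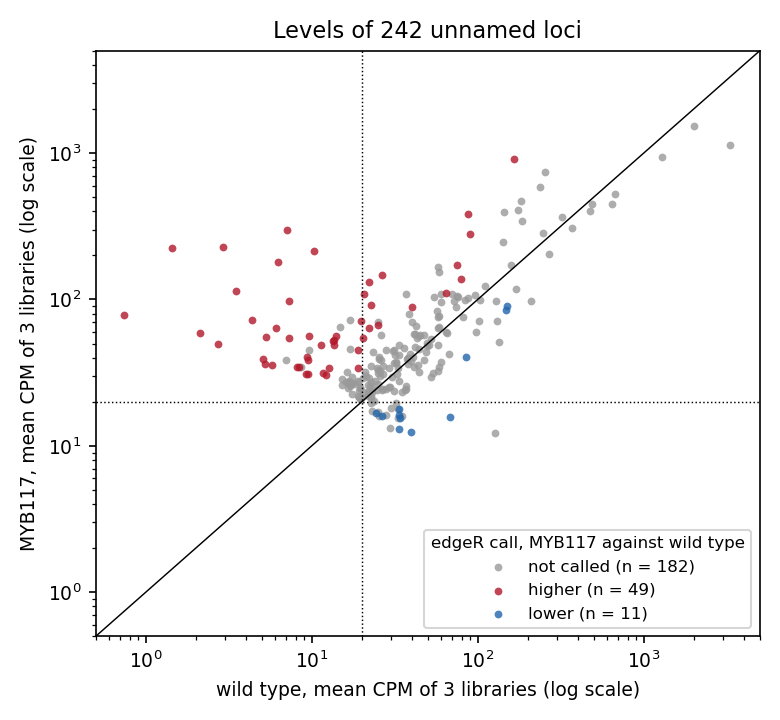
Mean CPM in the 3 MYB117 plants (vertical) against mean CPM in the 3 wild-type plants (horizontal), both on log axes, with 1 point per unnamed locus coloured by its call. The diagonal marks equal levels and the dotted lines mark 20 CPM in a group. The upper left field holds the 62 loci that reach 20 CPM only in the MYB117 plants, with 35 of the 49 rises, and the lower right field the 20 that reach it only in wild type, with 8 of the 11 falls.

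The counts of calls depended on single plants. Without wild-type plant 2 the loci higher and lower numbered 25 and 5, without MYB117 plant 2 they numbered 25 and 2, and without MYB117 plant 3 the falls numbered 2. Leaving out both plants numbered 1 gave 28 falls. Calls over all tested loci moved too. They numbered 2669 higher and 1930 lower with all plants, 1573 and 669 without wild-type plant 2, and 1236 and 316 without MYB117 plant 2. Falls over all tested loci numbered 443 without MYB117 plant 3 and 2685 without both plants numbered 1. Of the 49 rises 23, and of the 11 falls 1, were called in all 14 alternative fits, and none of the 60 called loci had the opposite sign in any of them.

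Large changes were rises. Rises of at least 2-fold were called at 46 loci (19.0%) and falls of that size at 6 (2.48%), against 7.97% and 5.07% of all tested loci. A 4-fold change was passed by 25 rises and 1 fall and an 8-fold rise by 13 loci. A 16-fold change was passed by 10 rises (4.13%) and 0 falls, against 1.50% and 0.104% of all tested loci. All 10 had wild-type means of at most 10.3 CPM, so each met the limit of 20 CPM only through the MYB117 plants. The same holds for 35 of the 49 rises, so these shares follow in part from how the loci entered. At the other end, 111 loci (45.9%) lay within 0.5 of 0 on the log2 scale, against 59.7% of annotated loci of the level.

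The locus with the largest rise, XLOC_036253, had 1.35, 1.67 and 1.29 CPM in wild-type plants and 199, 231 and 242 CPM in the MYB117 plants. The groups lay far apart and the plants within each close together. The means of 1.44 ± 0.208 and 224 ± 22.2 CPM (SD, n = 3 each) differed 156-fold, a log2 fold change of 7.19 (SE 0.20, adjusted p = 3.6e-05, edgeR). XLOC_034842 had 0.794, 1.09 and 0.342 CPM in wild type and 66.4, 81.0 and 87.2 CPM in the MYB117 plants. The lowest of these values rests on 13 reads, and the groups did not overlap. It rose 105-fold, with a log2 fold change of 6.63 (SE 0.42, adjusted p = 0.00051, edgeR).

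**Figure D2:**
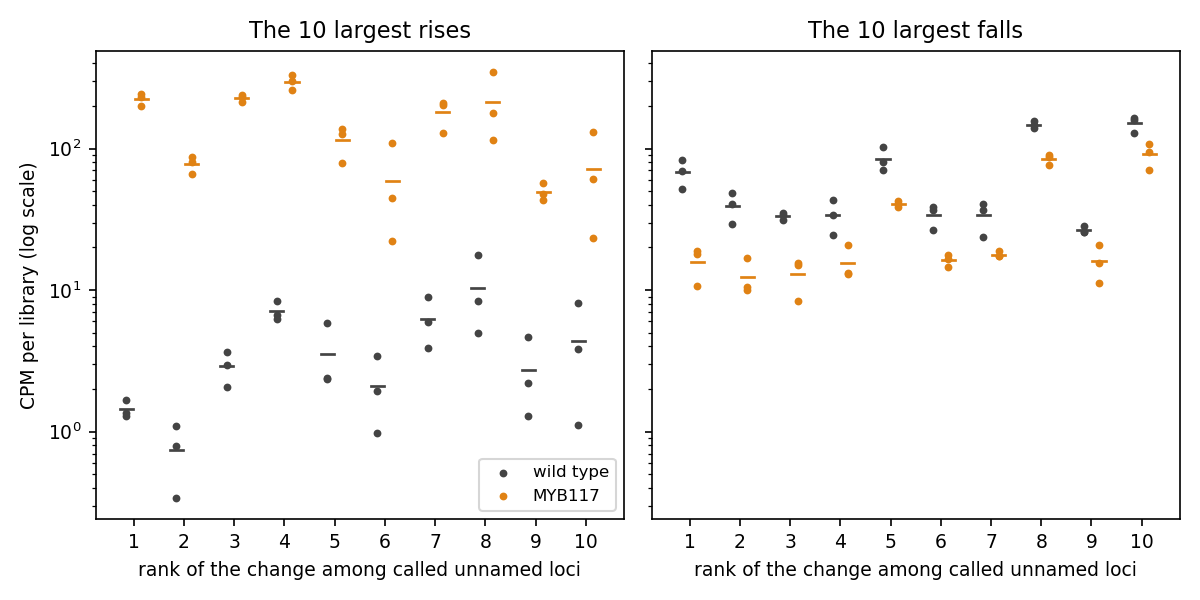
CPM of single plants (points, log axis) and group means (horizontal bars) for the 10 largest called rises, left, and the 10 largest called falls, right, by rank of the fitted change. Wild-type means at the rises lie between 0.742 and 10.3 CPM, and MYB117 means at the falls between 12.4 and 90.9 CPM. Single plants of these ranges overlap, from 8.37 CPM at a fall to 17.7 CPM at a rise.

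Every wild-type plant was low at the 10 loci of largest rise. Over the 10, no wild-type plant exceeded 17.7 CPM and no MYB117 plant was below 22.2 CPM, with folds from 16.5 to 156. The MYB117 plants differed at some of them. Number 6 by rise had 109, 44.7 and 22.2 CPM in MYB117 plants 1, 2 and 3, and number 10 had 131, 61.2 and 23.5 CPM. In both, plant 1 was the highest and plant 3 the lowest of the MYB117 plants. Number 10 lost its call without wild-type plant 2, without MYB117 plant 1 or 2, and with plant number as a replicate block. The other 9 were called in all 14 alternative fits.

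The remaining 39 rises had log2 fold changes from 0.71 to 3.73, with a median of 1.89 and adjusted p-values from 0.00039 to 0.043 (edgeR). Wild-type means lay below 10 CPM at 23 of the 49 rises and below 5 CPM at 7. In the MYB117 plants 15 of the 49 reached a mean of at least 100 CPM. Rises were called at 9 of the 39 loci whose mean reached 100 CPM and at 31 of the 161 below 50 CPM, and falls at 2 and 8.

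Falls were smaller. XLOC_004199 had 69.7, 83.6 and 51.8 CPM in wild type and 10.6, 18.9 and 18.0 CPM in the MYB117 plants. The groups did not overlap, and it was 4.32-fold lower in the MYB117 plants, with a log2 fold change of -2.22 (SE 0.27, adjusted p = 0.0044, edgeR). This was the fall called in every alternative fit. XLOC_010970 had 48.8, 40.5 and 29.3 CPM in wild type and 16.7, 9.99 and 10.5 CPM in the MYB117 plants, 3.19-fold lower, with a log2 fold change of -1.77 (SE 0.34, adjusted p = 0.018, edgeR). Its groups did not overlap either, but the call was lost without wild-type plant 2 or without MYB117 plant 2 or 3, with adjusted p-values from 0.0503 to 0.074.

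The other 9 falls had log2 fold changes from -1.46 to -0.65. Their wild-type means lay between 24.3 and 151 CPM, at least 100 CPM at 2 of them. Over the 11 falls the adjusted p-values ranged from 0.0044 to 0.045 (edgeR), and MYB117 means from 12.4 to 90.9 CPM.

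Groups did not overlap at 109 loci (45.0%), against 38.0% of all tested loci and 43.1% of annotated loci of the level. The MYB117 plants were above at 93 (38.4%) and below at 16 (6.61%), against 23.0% and 15.0% of all tested loci. All 60 called loci were among them. Another 49 were apart without passing the test, and 38 loci that were not called had an unadjusted p below 0.05. Called or not, 98 loci (40.5%) had such a p, against 33.2% of all tested loci.

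A further 23 loci had a fitted change of at least 2-fold that was not called, 16 higher and 7 lower. At each of the 23 the coefficient of variation (CV, SD as a percentage of the mean) exceeded 50% in at least 1 group. The clearest was XLOC_031974, with 330.2, 28.4 and 23.5 CPM in wild type and 31.1, 2.53 and 3.13 CPM in the MYB117 plants. Plant 1 stood far above the others in both groups, the groups overlapped, and the log2 fold change of -3.53 had an SE of 1.53 (adjusted p = 0.16, edgeR).

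Values varied more between plants at these loci than at annotated ones. The median CV was 27.1% in wild type and 20.7% in the MYB117 plants, against 19.5% and 14.1% for annotated loci of the level. A CV above 50% was found at 59 loci (24.4%) in wild type and 30 (12.4%) in the MYB117 plants, against 10.9% and 5.03% of annotated loci. A CV below 10% was found at 31 (12.8%) and 58 (24.0%), against 19.3% and 30.7%. Over all tested loci, whose median level was lower at 10.2 CPM, the median CV was 26.5% in wild type and 18.9% in the MYB117 plants. Of all tested loci, 21.6% and 10.3% had a CV above 50%, and 12.6% and 21.9% had one below 10%. These values lie closer to those of the unnamed loci described here than the annotated ones do. Among the unnamed loci described here, the wild-type CV was the higher one at 152 (62.8%), close to the 65.7% of annotated loci. No test was made of these differences, since loci of the same libraries are not replicates.

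**Figure D3:**
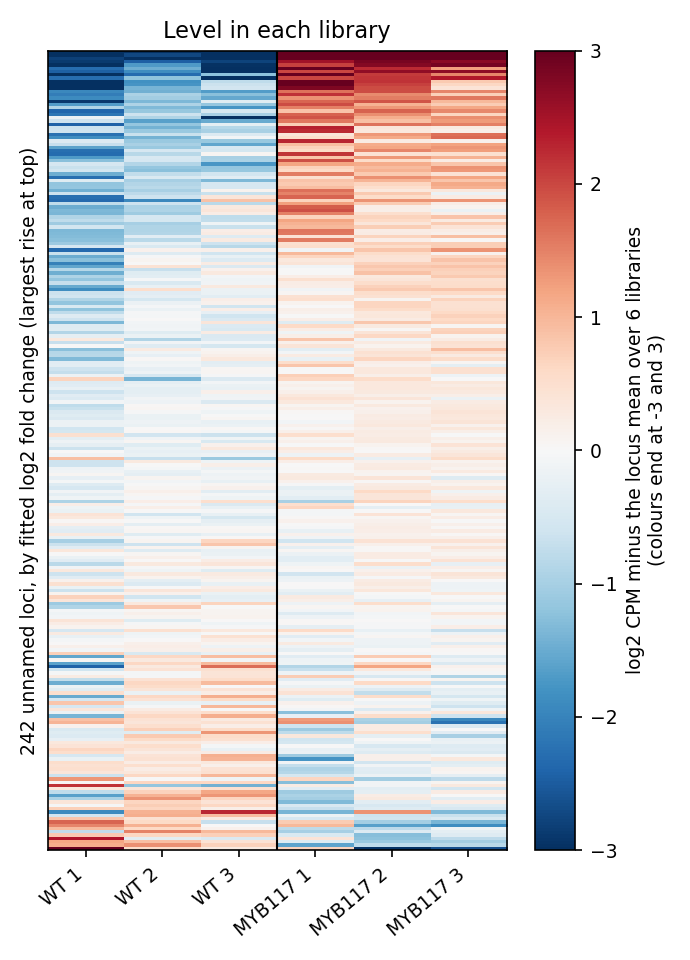
Each of the 242 unnamed loci as a horizontal line across the 6 plants, ordered by fitted log2 fold change with the largest rise at the top, coloured by log2 CPM minus its mean over the plants. The vertical line separates wild-type from MYB117 plants. Plant 1 of either group departs from its neighbours at many loci, being the plant farthest from its group's median at 136 loci in wild type and 139 in the MYB117 plants.

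At some loci 1 plant stood far from its group. XLOC_023204 had 65.0, 6.35 and 5.29 CPM in wild type and 17.0, 13.4 and 17.5 CPM in the MYB117 plants, so that 1 wild-type plant stood above the rest. XLOC_033485 had 14.95, 19.5 and 138 CPM in wild type and 119.7, 192 and 189 CPM in the MYB117 plants, with wild-type plant 3 at the level of the transgenic ones. At XLOC_037589 the MYB117 plants had 21.0, 21.3 and 20.9 CPM, a CV of 0.959%, while wild type had 12.3, 12.3 and 33.9 CPM. The CV exceeded 50% in both groups at 20 loci.

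Other loci were steady. At 11 loci the CV lay below 10% in both groups, and of these 1 was lower, 0 were higher and 10 were not called. XLOC_036736 had the lowest CV in wild type, 0.280%, with means of 26.9 ± 0.0752 CPM there and 34.9 ± 2.76 CPM in the MYB117 plants (SD, n = 3 each), and its log2 fold change of 0.28 was not called (SE 0.15, adjusted p = 0.24, edgeR). The one called was number 29 by level, at 148 ± 8.11 and 84.5 ± 6.85 CPM. Its log2 fold change was -0.90 (SE 0.16, adjusted p = 0.016, edgeR). Over all 6 plants the highest value was less than 2 times the lowest at 79 loci (32.6%, against 49.8% of annotated loci) and at least 4 times at 92 (38.0%, against 16.1%).

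Plant 1 of each group was often the one apart. It was the plant farthest from the group median at 136 loci (56.2%) in wild type and 139 (57.4%) in the MYB117 group, close to the 59.8% and 59.1% of annotated loci. Without wild-type plant 1 the median CV in wild type was 12.99%, and without MYB117 plant 1 that of the MYB117 plants was 9.90%. Wild-type plant 1 lay at least 2-fold below both other wild-type plants at 44 loci (18.2%, against 8.34% of annotated loci) and above them at 9. MYB117 plant 1 lay at least 2-fold above both others at 24 loci (9.92%, against 2.82%) and below them at 8. After TMM scaling, which raised the values of wild-type plant 1, the 44 became 28, the 9 became 13, the 24 became 27 and the 8 became 4. Plant 1 was that far above in both groups at 4 loci (1.65%, against 1.18% of annotated loci), among them XLOC_008754 and XLOC_031974, and the count was 4 after TMM scaling too. It was that far below in both at 4 loci (1.65%, against 1.52%), but at 0 after TMM scaling. At 4 further loci it was below in wild type and above in the MYB117 group. The part of the plants numbered 1 in the differences between genotypes was not tested beyond leaving them out.

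Several abundant loci kept a near-constant ratio to each other across all plants. After the values had been seen, pairs of loci were collected whose log2 ratio had an SD of at most 0.25 over the 6 libraries, among the 92 loci that ranged at least 4-fold. Of their 4186 pairs 52 (1.24%) met this, against 0.609% of the pairs of annotated loci with that range. The pairs joined 43 of the 92 loci (46.7%) into 13 sets, while 74.4% of the 1451 annotated loci, which offer many more partners, were in a pair. Sets were linked through pairs, so not every 2 loci of a set met the limit with each other. The largest SD between loci of a set was 0.465. Loci of a set share the libraries and their depth.

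**Figure D4:**
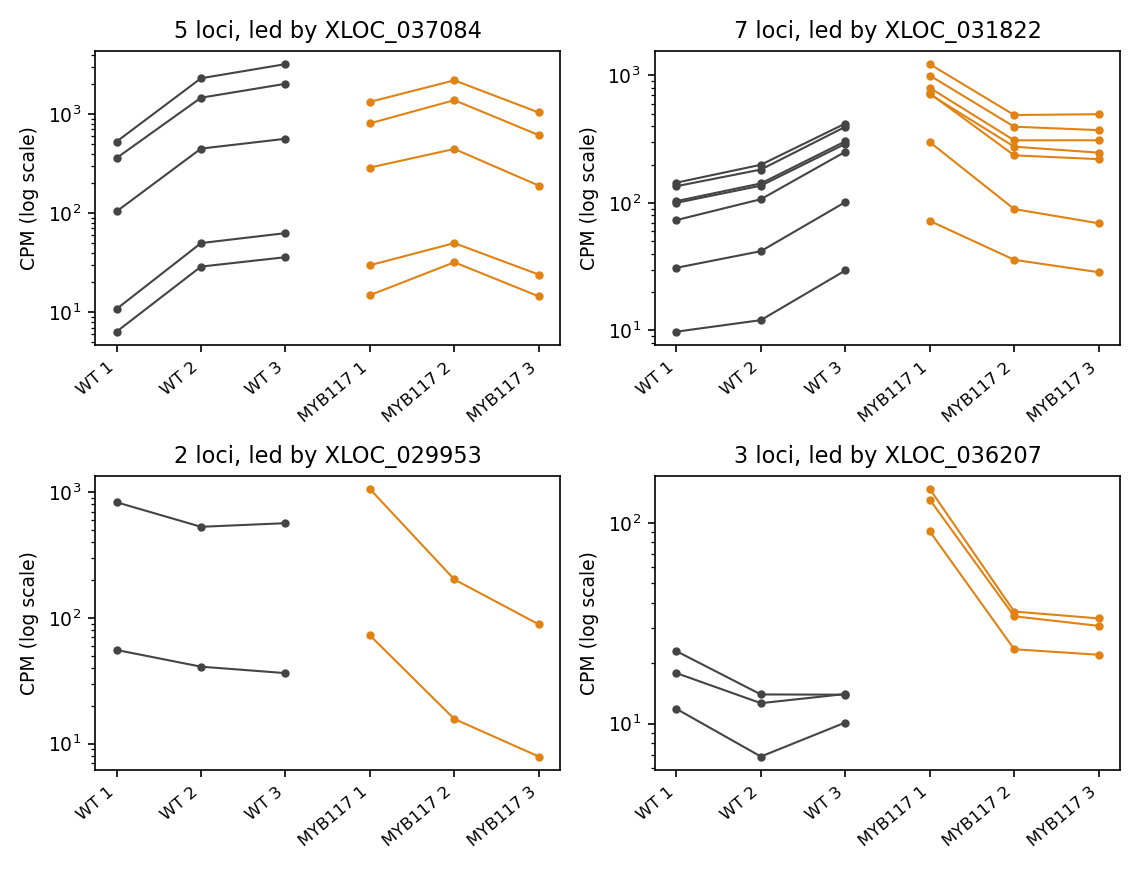
CPM by plant on a log axis for 4 sets of unnamed loci linked by pairs of steady ratio over the 6 plants. Each panel is named by its most abundant locus. In the set led by XLOC_031822 the SD of the log2 ratio between 2 loci reached 0.303. Lines join the values of 1 locus, and plant numbers have no order. Within a panel the lines run nearly parallel, while the panels differ in which plant is high.

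The most abundant set held XLOC_037084, XLOC_032344, XLOC_032473, XLOC_032190 and XLOC_035837, numbers 2, 3, 12, 118 and 210 by level, with 15.2% of the summed CPM. XLOC_032344 had 360.2, 1465 and 2024 CPM in wild type and 806, 1383 and 614 CPM in the MYB117 plants. The ratio of XLOC_037084 to it stayed between 1.47 and 1.69 in every plant, although their own levels ranged 6.06-fold and 5.62-fold. The log2 fold changes of the 5 lay between -0.50 and -0.27 and none was called (adjusted p from 0.59 to 0.78, edgeR).

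A set of 7 was led by XLOC_031822, number 7 by level, with 8.98% of the summed CPM. XLOC_031822 had 144, 199 and 419 CPM in wild type and 1226, 489 and 496 CPM in the MYB117 plants. XLOC_034427, the next of the set, had 135, 183 and 395 CPM and 998, 396 and 372 CPM. In both, wild-type plant 3 and MYB117 plant 1 were the high plants of their groups. The 7 log2 fold changes lay between 1.19 and 1.50, and none was called (adjusted p from 0.11 to 0.22, edgeR).

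A set of 2, XLOC_029953 and XLOC_031612, had a ratio between 11.3 and 15.6 in every plant. In a set of 3 loci with means from 27.5 to 44.7 CPM, MYB117 plant 1 stood apart. XLOC_036207 had 23.0, 13.98 and 13.9 CPM in wild type and 148, 36.2 and 33.4 CPM in the MYB117 plants, and XLOC_037530 and XLOC_033694 followed it. Groups were apart at all 3, yet none of the 3 was called, with log2 fold changes from 2.02 to 2.17 and adjusted p-values from 0.067 to 0.090 (edgeR). Another set of 3, which holds number 10 by rise, was called higher, with log2 fold changes from 3.37 to 4.03. All 3 lost the call without wild-type plant 2, MYB117 plant 1 or MYB117 plant 2, and with plant number as a replicate block. Its summed CPM was 4.94, 15.9 and 32.1 in wild type and 414, 209 and 76.5 in the MYB117 plants.

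The only positional information in the files was the locus number, which followed the number in the Potra identifiers upward. Above locus number 30000 lay 135 of the 242 loci (55.8%), against 69.7% of all unnamed loci, 9.66% of annotated loci of the level and 20.3% of all loci. Of the 135, 38 (28.1%) were higher and 7 (5.19%) lower, with a median log2 fold change of 0.50. Of the 107 with lower numbers, 11 (10.3%) were higher and 4 (3.74%) lower, with a median of 0.06. Annotated loci of the level had the same order for rises, with 16.8% higher above that number and 9.45% up to it. Their falls had the other order, with 8.39% lower above it and 9.40% up to it. All 10 rises of at least 16-fold and 12 of the 13 of at least 8-fold had numbers above 30000.

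**Figure D5:**
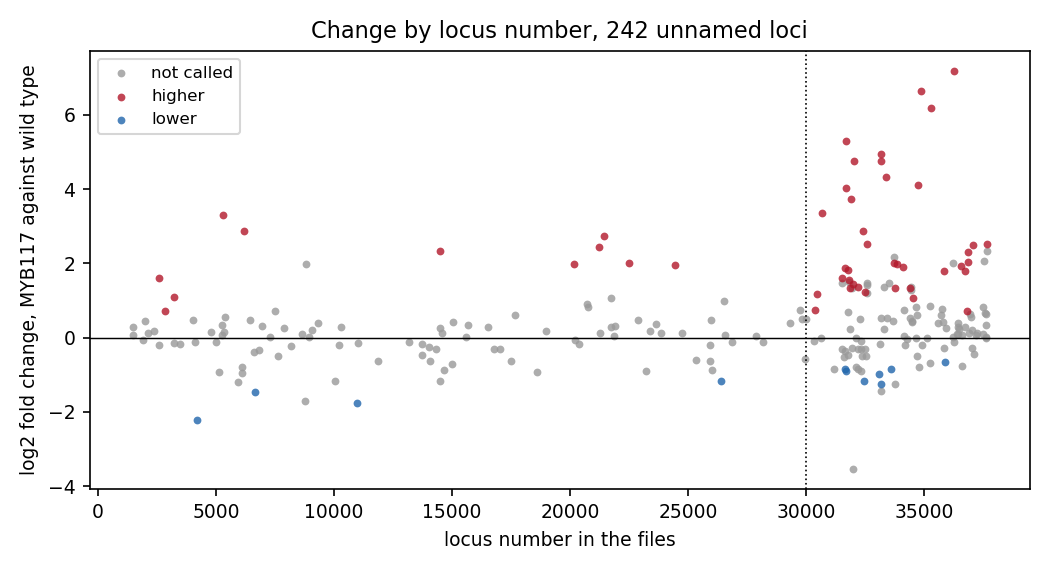
Log2 fold change (MYB117 against wild type) of each of the 242 unnamed loci against its locus number, coloured by call. The vertical line marks locus number 30000, above which lie 135 loci and 38 of the 49 rises.

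Where both group means were at least 20 CPM, 80 loci had numbers above 30000, with 10 higher and 3 lower, and 80 had numbers up to it, with 4 higher and 0 lower. Over these 160 loci 8.75% were higher and 1.88% lower. The shares were 7.55% and 8.02% of annotated loci with both means at that level, and 9.94% and 7.19% of all tested loci. Spread followed the same line. The median CV above that number was 29.0% in wild type and 23.0% in the MYB117 plants, and up to it 23.4% and 17.5%. Between neighbours whose identifiers share the number before the g stood 53 loci (21.9%). Of these, 6 (11.3%) were higher and 2 (3.77%) lower, against 43 (22.8%) and 9 (4.76%) of the other 189. Numbers up to 30000 belonged to 52 of the 53, and 10.3% of the 107 loci there were higher. This contrast therefore largely repeats the split by number.

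Neighbours by number sometimes changed together. Of the 60 called loci, 14 (23.3%) had a locus of adjacent number called in the same direction, 7 had one called only in the opposite direction, and 39 had no called neighbour. For called annotated loci of the level the share was 12.9%. Without wild-type plant 2 or MYB117 plant 2 the 14 fell to 6 and 5.

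In 1 run of 3 successive numbers the directions split. XLOC_033169 had 44.6, 211 and 148 CPM in wild type and 37.4, 56.0 and 60.9 CPM in the MYB117 plants, with a log2 fold change of -1.43 that was not called (SE 0.47, adjusted p = 0.081, edgeR). The next number had 5.97, 8.98 and 3.92 CPM in wild type and 129, 204 and 209.6 CPM in the MYB117 plants and rose, with a log2 fold change of 4.75 (SE 0.36, adjusted p = 0.00088, edgeR). The one after it had 2.35, 5.82 and 2.39 CPM and 78.6, 126 and 138 CPM and rose likewise, with a log2 fold change of 4.95 (SE 0.41, adjusted p = 0.0012, edgeR). In all, 16 of the 242 loci stood beside another of them in 9 pairs of successive numbers.

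Just inside the limit of 20 CPM lay a locus called higher with a mean of 20.2 CPM, XLOC_032512 with 20.1 and XLOC_016525 with 20.01. Just outside lay XLOC_025054 with 19.96, XLOC_009525 with 19.9 and XLOC_024193 with 19.8 CPM. The log2 fold changes of the 3 inside were 1.62, -0.48 and 0.28, and of the 3 outside -0.43, 0.29 and 1.22.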

How the data were processed

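Leaf libraries of 3 wild-type and 3 MYB117-overexpressing poplars were analysed. The deposited values are raw read counts per locus, not normalized, in 1 table per library. Per the submitters' processing notes, the tools included HISAT2 2.1.0, Cufflinks and HTSeq 0.6.1. The sources used here do not give the genome build, annotation, strand setting or counting options. The 5 closing entries of each table count reads given to no locus (27.0% to 29.6% of reads) and were left out.

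CPM were computed on reads in loci without further scaling. Counts were tested with edgeR 4.0.16 (R 4.3.3): TMM scaling, its expression filter (minimum count 10, total 15), quasi-likelihood F test, two-sided, no covariate, Benjamini-Hochberg adjustment over 26854 loci, called below an adjusted p of 0.05. The SE is the log2 fold change divided by the square root of F. The procedure was tested on simulated data. DESeq2 1.42.0, limma 3.58.1 (voom), other scalings and filters, a replicate block and leaving out plants were alternatives. Sets of steady ratio were joined with igraph 2.1.4.

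The loci were chosen with earlier results of these data known, as were the tests. Loci described singly or summarised together were the 10 most abundant, the 10 largest called rises and falls without overlap, the 5 most and 5 least variable in each group, the 3 on each side of the level limit and runs of successive numbers. Loci that stood apart in plant 1 or led a steady set, those with the largest change that was not called and those named as examples were picked after their values were seen. As no identifier is paired with a gene name, identifiers of only 2 rises and 2 falls are printed.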

Additional observations from a re-analysis of the deposited data

How the results depend on the processing

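No called locus changed sign in any of the 14 alternative fits. Single-locus values were tallied together with a few alternative counts of steady sets and of rises by locus number. Of these, 558 kept their direction and call or, for the counts, stayed within a factor of 1.5. Another 50 lost and 18 gained a call, and 6 reversed. All 6 reversals were log2 fold changes of loci not called. Leaving out 1 plant gave -2.43 to 0.045 at XLOC_008754 and -0.71 to 0.10 at XLOC_013725, the highest without wild-type plant 1. It gave -0.88 to 0.070 at XLOC_037084, -0.74 to 0.12 at XLOC_032473, -0.73 to 0.15 at XLOC_032190 and -0.70 to 0.17 at XLOC_035837, the highest without wild-type plant 3. DESeq2 called 81 loci, including the 60, and gave 24 called loci with a neighbour called alike in place of 14. Leaving out 1 plant at a time gave 25 to 50 rises, 2 to 14 falls, 25 to 46 rises and 2 to 8 falls of at least 2-fold, a median log2 fold change of 0.16 to 0.30, 5 to 16 loci with such a neighbour, a share difference of 0.142 to 0.449 points, and a median CV of 12.99% to 31.3% in wild type and 9.90% to 21.5% in the MYB117 plants. The plants left out for the fewest rises were wild-type 2 and MYB117 2. Over all tested loci, leaving out 1 plant gave 1236 to 2839 rises and 316 to 2273 falls. Without both plants numbered 1 there were 28 falls, 15 of them at least 2-fold, and 67.4% of calls were rises against 81.7%. The cause was not tested.

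The counts depended on the level limit, which also set the number of loci. At 10 CPM, rises, falls, and both at 2-fold numbered 96, 25, 87 and 14. At 50 CPM they numbered 18, 3, 16 and 1 of 81 loci, beside 49, 11, 46 and 6 of 242 at 20 CPM. With 20 CPM in each group they numbered 14, 3, 12 and 1 of 160 loci, with a median of 0.073. Over all tested loci the shares were 9.94%, 7.19%, 7.97% and 5.07%. With plant number as a replicate block 68 loci were called, 52 of them among the 60, with 17 falls and 75.0% rises. Number 10 by rise and the other 2 loci of its steady set lost their calls under it. The numbers are not stated to pair plants: deviations of same-numbered plants correlated at 0.388, 0.182 and 0.048, and not every plant correlated best with its own number. Other scalings moved the median of all loci from -0.06 to between -0.08 and -0.06. Steady sets held 29 loci at an SD of 0.2 and 55 at 0.3. Depth limits low values: 13 reads was the fewest behind a value.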
